A study of Mus musculus with 12 samples.

Results

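The translation initiation factor genes were taken as every row of the gene count table whose Entrez identifier maps to a mouse symbol that begins with Eif followed by a digit, with the Eif2ak kinases, Eif2s3x, Eif2s3y and pseudogenes left out. This gave 51 genes of the 27179 in the table, and 48 of them entered the test across all genes. Of the other 3 genes, Eif1ax is X-linked and belongs to a class removed before the test, Eif4e1b had 0 counts in all 12 libraries, and Eif2c5 had 0 counts too and is an X-linked long noncoding RNA that shares only the letters of the name. B cells were from the spleens of male mice 6 to 12 weeks of age, C57BL/6 by the labels and C57BL/6 Pep3b by the study's methods, and RNA-seq was done in 2 biological replicates at each of 6 stages. These were untreated naive B cells sorted as TCRβ- B220+ IgM+ IgD high, cells at 3 h, 10 h and 33 h after lipopolysaccharide (LPS) that were sorted as CD69+ and had not yet divided, and from day 4 of LPS culture the expanded activated B cells (CD22+ CD138-) and the plasmablasts (CD22- CD138+), which are dividing or newly divided antibody-secreting cells. All groups share this background. By the study's methods, the cells at 3 h, 10 h and 33 h were labelled with CellTrace Violet. Day 4 cells came from a long-term culture at lower cell density, for which no labelling is stated. Stage and culture cannot be told apart between 33 h and expanded cells.

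Eukaryotic initiation factors (eIFs) bring the small ribosomal subunit and the initiator tRNA to the start codon of an mRNA. The eIF4F complex, made of the cap-binding protein eIF4E, the scaffold eIF4G and the RNA helicase eIF4A, recruits the mRNA, eIF3 bridges the mRNA and the ribosome, and eIF2 delivers the initiator tRNA as a complex with GTP that eIF2B recharges. Resting lymphocytes make little protein, and they enlarge and build up their translation machinery after activation before they divide. Levels below are reads scaled for gene length and library size (RPKM), so they can be compared between genes. Library sizes were scaled by the trimmed mean of M-values. Changes are log2 fold changes from edgeR. Their standard errors were derived here from the fitted coefficient and edgeR's F statistic against no change. A change was called when edgeR's test against a fold change of 1.5 gave a Benjamini-Hochberg adjusted p under 0.05 over all 12750 genes tested, and the quasi-likelihood F-test against no change is given beside it where it adds smaller changes.

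The 12 libraries held between 23026619 and 60585587 counts, with a median of 37839944. Libraries of a stage differed by more than counting noise in all 6 stages, and the pair at 3 h varied most, with an SD of the log2 ratio between replicates of 0.297 over the tested initiation factor genes against 0.058 to 0.150 at the other stages. B cell markers (Cd79a, Cd79b, Ms4a1, Cd22 and Pax5) were detected in every library, and plasmablast markers (Sdc1, Prdm1, Xbp1, Jchain and Irf4) summed to between 16396 and 16909 CPM (counts scaled to the library total) in plasmablasts against at most 2684 at any other stage.

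Initiation factor genes took 0.987% and 0.986% of all counts in the naive libraries, 1.65% and 1.70% at 3 h, and 1.88% and 1.89% at 10 h. The share was 1.65% and 1.83% at 33 h, 1.59% and 1.55% in expanded cells, and 1.07% and 1.08% in plasmablasts. Both naive libraries were thus below every activated library, and the plasmablast libraries stood nearest to them. After scaling of the library sizes, the mean share was 1.13% ± 0.0181 (SD, n = 2) in naive cells, 2.12% ± 0.00464 at 3 h, 1.88% ± 0.0123 at 10 h and 1.48% ± 0.0357 in plasmablasts. The highest share was thus at 10 h by total counts and at 3 h after scaling. Eif4g2, Eif4g1 and Eif5a had the largest shares of these counts, at 9.72%, 7.29% and 7.11% of the initiation factor counts on average over the libraries. Among the 49 genes with counts, the lowest stage mean was in naive cells for 32. The highest was at 3 h for 24, in plasmablasts for 8, at 10 h for 7, in expanded cells for 5, at 33 h for 3 and in naive cells for 2. The shares of all genes with their lowest or highest mean at each stage were not computed.

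**Figure D1:**
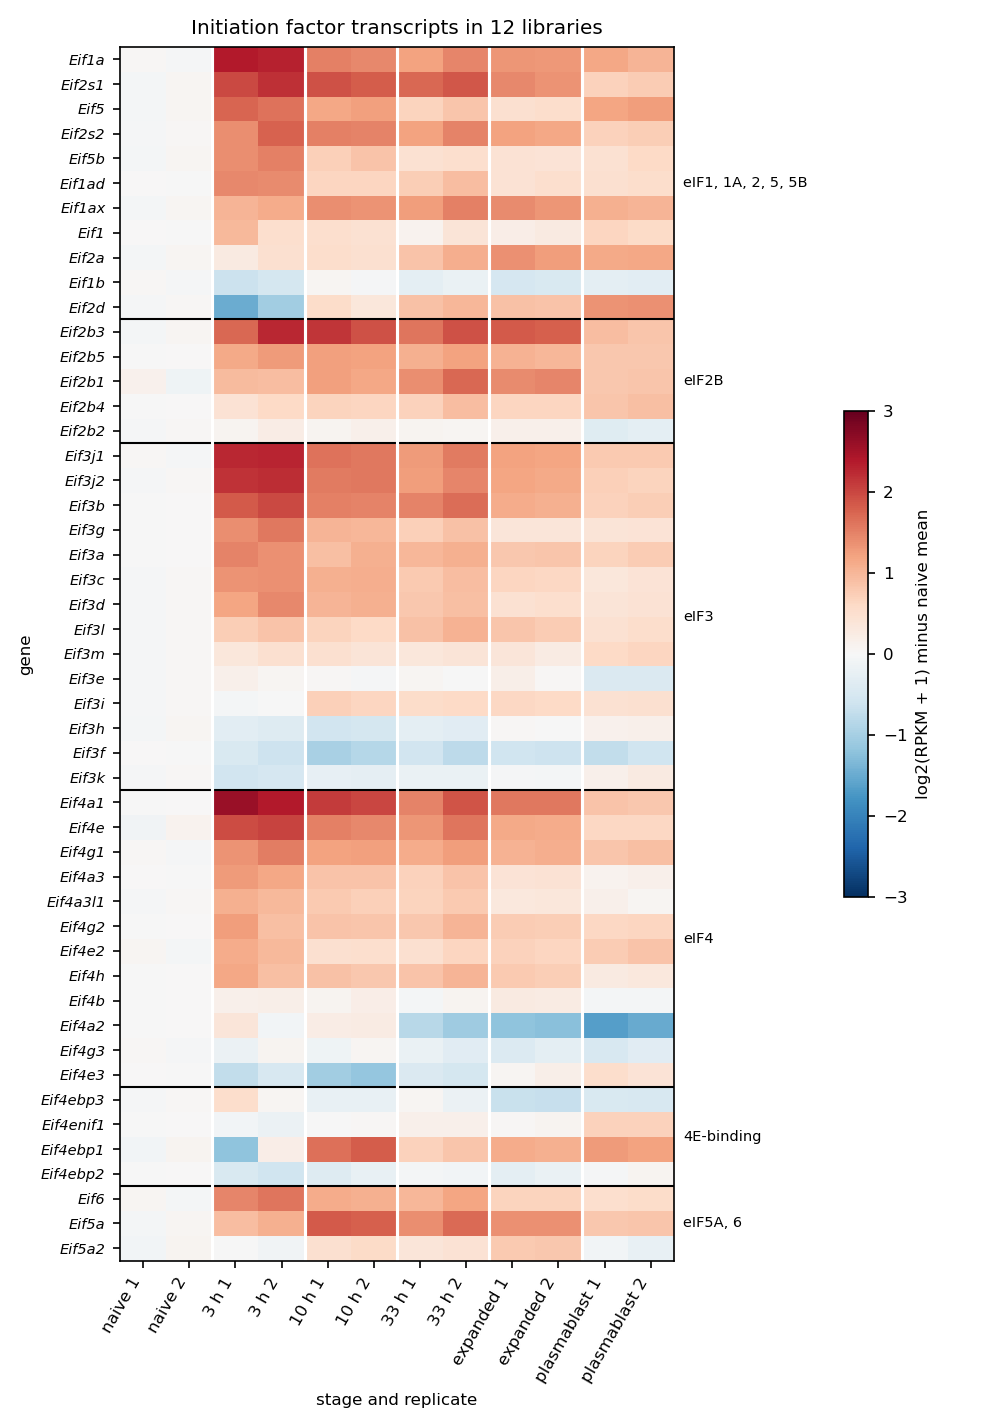
Each row is an initiation factor gene and each column a library, and the colour gives log2(RPKM + 1) minus the mean of the 2 naive libraries. Rows are grouped by factor and ordered by their change at 3 h. Most rows turn red at 3 h and pale again towards plasmablasts. Eif2d is blue at 3 h, and Eif1b, Eif3f, Eif3h, Eif3k, Eif4e3 and Eif4ebp2 are a paler blue there. Eif4a2 turns blue from 33 h.

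The largest movement came between naive cells and 3 h after LPS. Of the 48 genes tested, 27 rose and 1, Eif2d, fell, beside 21.0% of all genes tested called higher and 24.3% called lower. The median log2 fold change was 1.02 for the initiation factor genes and -0.03 for all genes. The F-test against no change counted 31 higher and 7 lower, beside 34.7% and 36.3% of all genes. Both 3 h libraries were above both naive libraries for 36 of the 51 genes and below them for 8. The 51 include Eif4e1b and Eif2c5, which had 0 counts, and the share of all genes so separated was not computed. With library size alone as the scaling, which moved the median of all genes by -0.21 on the log2 scale, 25 were called higher and 6 lower. The share of all genes called with that scaling was not computed. Fewer cells of a type and less RNA per cell cannot be told apart in such bulk libraries. The naive libraries also carried markers of other cells: the 7 myeloid markers (Lyz2, Csf1r, Itgam, Cd14, Adgre1, S100a8 and S100a9) were all above the floor of 3 counts and summed to between 121 and 275 CPM, against 2.43 to 4.64 at 3 h with 2 above the floor. The 4 erythroid markers (Hbb-bs, Hba-a1, Hba-a2 and Alas2) summed to between 146 and 196 CPM in naive cells and at most 0.791 at 3 h, and the 6 T cell markers to at most 3.39 in any library. The part of these cells in the change at 3 h was not tested.

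**Figure D2:**
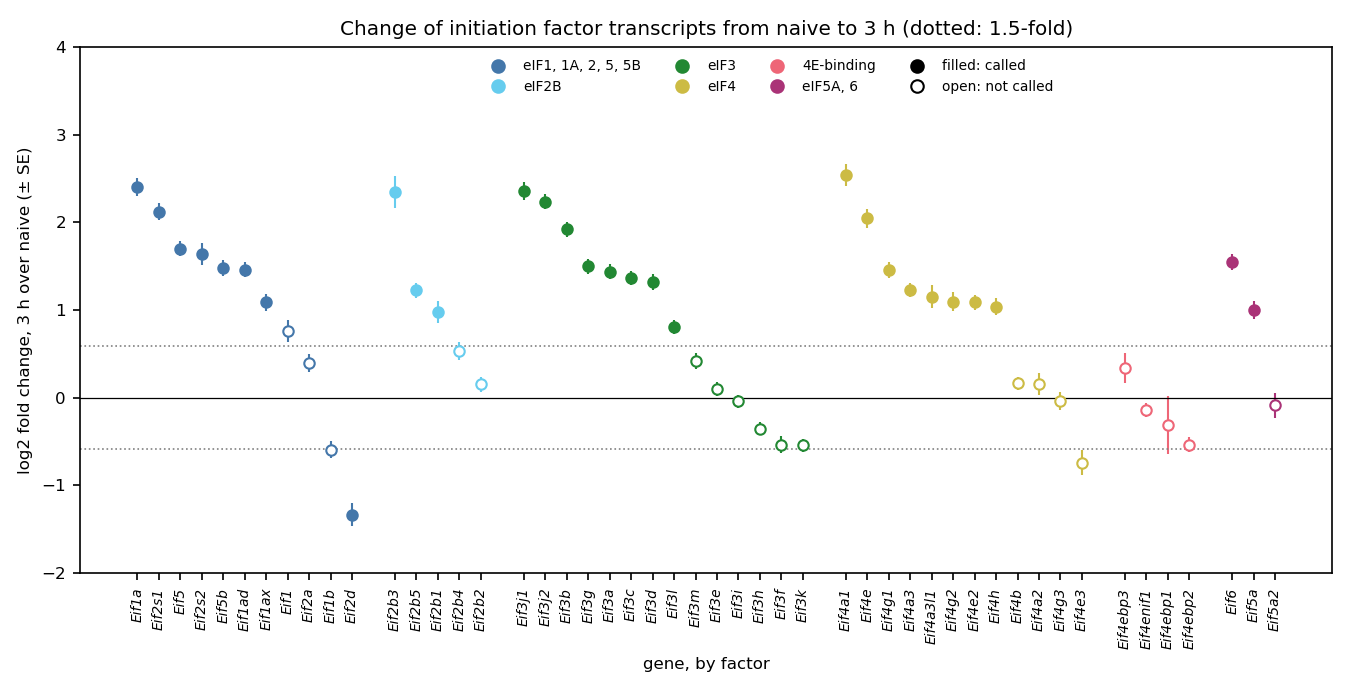
Log2 fold change from naive to 3 h with its standard error for each gene with counts, coloured by factor, with filled points for called changes and dotted lines at 1.5-fold. Eif1ax comes from the fit in which X-linked genes were kept. The helicase gene Eif4a1 is highest at 2.54 and Eif2d lowest at -1.33.

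Genes of start codon selection and of the initiator tRNA complex mostly rose. Of 10 tested, 6 were called higher and 1 lower at 3 h, beside 21.0% and 24.3% of all genes. Eif1a, which encodes the autosomal form of eIF1A, a factor that keeps the scanning ribosome open, was at 20.6 and 19.7 RPKM in the naive libraries, 109 and 104 in the 3 h libraries, 59.5 and 56.5 in those of 10 h, 47.5 and 56.8 in those of 33 h, 52.1 and 51.1 in expanded cells and 46.0 and 41.6 in plasmablasts. The naive and 3 h libraries do not overlap, and the log2 fold change was 2.41 ± 0.10 (adjusted p = 2.16e-09). Eif1a fell from 3 h to 10 h, at -0.88 ± 0.10 (adjusted p = 0.00457), a call lost with library size alone. Eif2s1, for the alpha subunit of eIF2, the target of the stress kinases, stood at 28.1 and 30.7 RPKM in the naive libraries, 119 and 138 in the 3 h libraries, 113 and 106 in those of 10 h, 98.8 and 109.8 in those of 33 h, 81.4 and 76.5 in expanded cells and 48.2 and 50.3 in plasmablasts. Eif2s2, for the beta subunit, was at 17.4 and 18.2, 48.1 and 62.6, 52.2 and 51.9, 42.7 and 51.4, 42.5 and 41.2, and 29.2 and 30.2 RPKM in the same order of stages. This order holds below wherever 6 pairs of values are given without their stages. Both subunit genes rose at 3 h, by 2.12 ± 0.10 and 1.64 ± 0.12 on the log2 scale, and were lower in plasmablasts than in expanded cells by the F-test alone, at -0.68 ± 0.10 and -0.50 ± 0.12.

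Eif5, which encodes the activator that makes eIF2 hydrolyse its GTP at the start codon, had a second high level in plasmablasts. It was at 67.1 and 71.8 RPKM in the naive libraries, 237 and 215 in the 3 h libraries, 157 and 164 in those of 10 h, 111 and 123 in those of 33 h, 97.7 and 101 in expanded cells and 159 and 167 in plasmablasts. Eif5 rose by 1.70 ± 0.09 at 3 h (adjusted p = 2.94e-08), and from expanded cells to plasmablasts its log2 fold change of 0.72 ± 0.08 passed the F-test (adjusted p = 1.01e-05) but not the test against 1.5-fold (adjusted p = 0.0753). Eif5b, for the GTPase that joins the ribosomal subunits, and Eif1ad, for an eIF1A-like protein, rose by 1.48 ± 0.09 and 1.46 ± 0.09 at 3 h. Eif1ad then fell to 10 h, at -0.80 ± 0.08 (adjusted p = 0.0128), a call lost with library size alone and without 10 h replicate 1. Of Eif1ad, 15.3% of the exonic bases overlap the opposite-strand gene Banf1, as do 16.8% of those of Eif5b with Rev1.

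Eif2d was the single gene of the 48 tested that was called lower at 3 h against 1.5-fold with the main scaling. It encodes a factor that can place an initiator tRNA on the ribosome without GTP and that acts in recycling. It was at 21.2 and 22.2 RPKM in the naive libraries, 7.13 and 9.94 in the 3 h libraries, 32.2 and 27.9 in those of 10 h, 40.7 and 44.5 in those of 33 h, 40.9 and 39.9 in expanded cells and 57.0 and 58.1 in plasmablasts. Its 3 h libraries were below all others and its plasmablast libraries above all others. Eif2d fell from naive cells to 3 h, at -1.33 ± 0.13 (adjusted p = 3.88e-05), rose by 1.8 ± 0.13 to 10 h (adjusted p = 2.18e-06), and was higher in plasmablasts than in naive cells by 1.41 ± 0.13 (adjusted p = 9.12e-06). Eif2a, for another protein able to bind initiator tRNA, had stage means that ran from 30.7 RPKM in naive cells to 78.4 in expanded cells, with 69.3 in plasmablasts. No single transition of Eif2a was called against 1.5-fold, and naive cells to plasmablasts gave 1.17 ± 0.10 (adjusted p = 2.76e-05).

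The exchange factor eIF2B has 5 subunits, and the genes of 3 rose at 3 h while none fell. Of all genes, 21.0% were called higher and 24.3% lower at that step. Eif2b3, for the gamma subunit, was the least abundant of them at 2.83 and 3.13 RPKM in the naive libraries, 12.2 and 18.1 in the 3 h libraries, 16.7 and 14.0 in those of 10 h, 11 and 14.0 in those of 33 h, 13.3 and 12.8 in expanded cells and 6.5 and 6.08 in plasmablasts. Eif2b3 rose by 2.35 ± 0.18 (adjusted p = 7.14e-07) and fell between expanded cells and plasmablasts, at -1.06 ± 0.17 (adjusted p = 0.0099). That second call was lost without plasmablast replicate 2 and by DESeq2. Eif2b5, for the catalytic epsilon subunit, was at 39.4 and 40.4 RPKM in the naive libraries, 88.5 and 98.0 in the 3 h libraries, 94.7 and 93.8 in those of 10 h, 84.0 and 93.5 in those of 33 h, 83.3 and 80.7 in expanded cells and 70.4 and 70.2 in plasmablasts. Eif2b1, for the alpha subunit, was at 15.3 and 12.5, 27.5 and 27.4, 33.7 and 32.3, 37.8 and 47.8, 38.7 and 40.2, and 24.8 and 25.6 RPKM. Eif2b5 and Eif2b1 rose by 1.23 ± 0.08 and 0.98 ± 0.12 at 3 h, whereas the delta subunit gene Eif2b4 and the beta subunit gene Eif2b2 gave 0.54 ± 0.10 and 0.15 ± 0.09 and were not called. From naive cells to plasmablasts the log2 fold change ran from -0.33 for Eif2b2 to 1.08 for Eif2b3, with 4 of the 5 called higher, beside 26.6% of all genes. All 4 calls were lost with library size alone, and that of Eif2b1 also by DESeq2 and without naive replicate 2.

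The eIF3 genes split at 3 h into subunits that rose and subunits that did not. At this step 21.0% of all genes tested were called higher and 24.3% lower. eIF3 is the largest initiation factor, with a core of subunits that carry PCI or MPN domains and other subunits attached around it. Of the 14 genes, 8 rose (Eif3a, Eif3b, Eif3c, Eif3d, Eif3g, Eif3j1, Eif3j2 and Eif3l) and none was called lower, while Eif3e, Eif3f, Eif3h, Eif3i, Eif3k and Eif3m were not called. By class, a grouping made with these values known, 3 of 6 PCI genes (Eif3a, Eif3c, Eif3e, Eif3k, Eif3l and Eif3m) rose. Of 2 MPN genes (Eif3f and Eif3h), 0 rose. Of 6 genes outside that core (Eif3b, Eif3d, Eif3g, Eif3i, Eif3j1 and Eif3j2), 5 rose. Differences between the classes were not tested.

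Eif3b, for a scaffold subunit that binds the ribosome, was at 153 and 156 RPKM in the naive libraries, 556 and 616 in the 3 h libraries, 444 and 438 in those of 10 h, 434 and 493 in those of 33 h, 337 and 325 in expanded cells and 251 and 258 in plasmablasts. Eif3a, for the largest subunit, was at 97.7 and 99.7, 278 and 256, 184 and 209, 197 and 209, 174 and 176, and 158 and 167 RPKM. Eif3g, for an RNA-binding subunit, was at 166 and 169, 441 and 503, 337 and 334, 273 and 306, 215 and 214, and 218 and 223 RPKM. All 3 were highest at 3 h, with log2 fold changes to 3 h of 1.92 ± 0.09, 1.44 ± 0.08 and 1.5 ± 0.09 (adjusted p of 6.00e-09, 2.13e-07 and 1.70e-07). Eif3c, Eif3d and Eif3l, the last called with the smallest change of the 27, rose by 1.37, 1.32 and 0.81. The call for Eif3l was lost with library size alone, by DESeq2 and without 3 h replicate 2.

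Eif3j1 and Eif3j2 encode the loosely bound j subunit. Eif3j1 was at 13.0 and 12.2 RPKM in the naive libraries, 64.0 and 65.4 in the 3 h libraries, 41.2 and 39.9 in those of 10 h, 31.7 and 38.7 in those of 33 h, 30.5 and 29.6 in expanded cells and 22.4 and 22.6 in plasmablasts. Eif3j2 was at 24.6 and 25.8, 117 and 120.2, 76.0 and 77.7, 61.6 and 71.5, 58.5 and 56.1, and 41.8 and 40.6 RPKM. They rose by 2.36 ± 0.10 and 2.24 ± 0.09. The genes share sequence: 34.6% of the 81-base windows of the Eif3j1 transcripts and 86.6% of those of Eif3j2 occur in the other gene, so the division of reads between them is uncertain. In addition, 19.0% of the exonic bases of Eif3j1 overlap Spg11 on the opposite strand. The highest and lowest stage means of their log2 ratio lay 0.12 apart. The ratio was not shown to differ between stages (adjusted p = 0.356, exact permutation test). Because of the shared sequence, this test cannot show whether the genes change alike.

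The 6 eIF3 genes that were not called at 3 h included the most abundant initiation factor transcripts of naive cells. Eif3f, Eif3h and Eif3k had the 3 highest stage means there, at 870.2, 479 and 446 RPKM, and the 3 highest in plasmablasts, at 548, 530.2 and 518 RPKM, in the same order. At 3 h the log2 fold changes were -0.53 ± 0.09, -0.35 ± 0.07 and -0.54 ± 0.07, each lower by the F-test (adjusted p of 1.88e-04, 8.48e-04 and 2.41e-05) and none past 1.5-fold. Eif3e and Eif3i gave 0.10 ± 0.08 and -0.04 ± 0.07, and Eif3m gave 0.42 ± 0.09, higher by the F-test. Eif3i moved later: it was at 214 and 222 RPKM at 3 h and 370.4 and 354 at 10 h and rose by 0.73 ± 0.07 (adjusted p = 0.0321), a call that 6 of 15 alternatives lost, among them DESeq2 and without 3 h replicate 1 or 10 h replicate 1. Relative levels within eIF3 moved with these changes, with stage means of 155 RPKM for Eif3b against 870.2 for Eif3f in naive cells and 586 against 601 at 3 h.

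**Figure D3:**
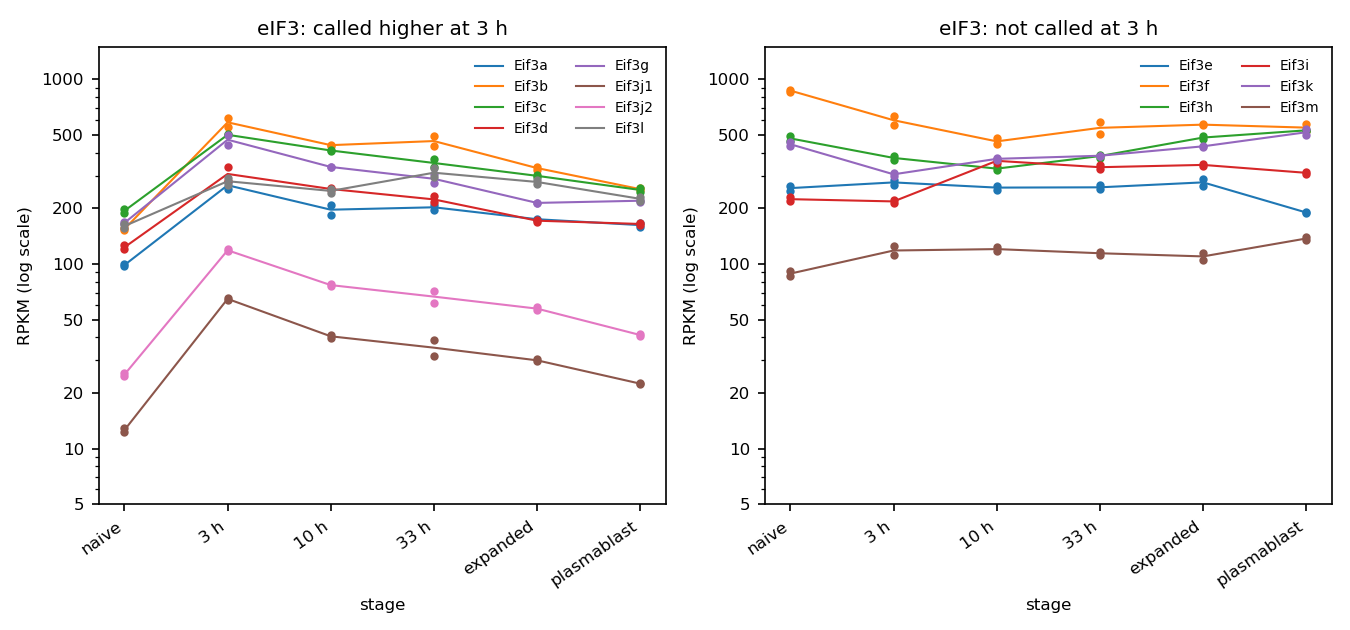
RPKM on a log axis by stage for the eIF3 genes, points for libraries and lines through stage means. The 8 genes on the left step up at 3 h, and 7 of them have their highest stage mean there, while that of Eif3l is at 33 h. The 6 on the right stay within a range of stage means of at most 1.88-fold, that of Eif3f.

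The helicase genes Eif4a1 and Eif4a2, whose products exchange for each other in eIF4F, moved apart. Eif4a1 (chr11:69666936-69672423) was at 23.9 and 24.0 RPKM in the naive libraries, 149 and 129 in the 3 h libraries, 106 and 98.6 in those of 10 h, 69.5 and 91.9 in those of 33 h, 73.6 and 73.1 in expanded cells and 44.4 and 42.5 in plasmablasts. It had the largest rise of all 48 genes at 3 h, 2.54 ± 0.13 (adjusted p = 7.90e-09). Eif4a2 (chr16:23107468-23114132) was at 58.9 and 60 RPKM in the naive libraries, 76.7 and 56.3 in the 3 h libraries, 69.5 and 70.5 in those of 10 h, 33.1 and 28.0 in those of 33 h, 25.3 and 24.3 in expanded cells and 18.4 and 20.3 in plasmablasts. Its naive and 3 h libraries overlap, and it fell between 10 h and 33 h, at -1.20 ± 0.13 (adjusted p = 5.68e-04), with -1.62 ± 0.13 from naive cells to plasmablasts (adjusted p = 1.98e-06). The ratio of Eif4a2 to Eif4a1 went from 2.47 and 2.5 in the naive libraries to 0.516 and 0.437 at 3 h and 0.653 and 0.715 at 10 h, and it lay between 0.304 and 0.479 in the 6 later libraries. The ratio differed between stages, with the highest and lowest stage means 2.88 apart on the log2 scale (adjusted p = 0.00789, exact permutation test of the F statistic over all 10395 groupings of the libraries, which can give no p below 9.62e-05). Of the windows of the Eif4a1 transcripts, 24.7% also occur in transcripts of other loci, mainly the pseudogene Eif4a-ps4, and the part of this in the level was not tested.

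Eif4a3, for the related helicase of the exon junction complex, was at 80.0 and 78.9 RPKM in the naive libraries, 193 and 179.9 in the 3 h libraries, 144 and 145 in those of 10 h, 129 and 144 in those of 33 h, 106 and 107 in expanded cells and 85.6 and 88.8 in plasmablasts. It rose by 1.23 ± 0.08 at 3 h (adjusted p = 1.89e-06), and its ratio to Eif4a1 went from 3.35 and 3.29 in naive libraries to 1.30 and 1.40 at 3 h (range of stage means 1.30 on the log2 scale, adjusted p = 0.00269, exact permutation test). The related gene Eif4a3l1 rose by 1.15 ± 0.13 at stage means of 4.83 and 10.7 RPKM. The stretch below encodes the helicase motif after which the DEAD-box family is named. It is shown to compare the 3 helicase genes, and Eif4a2 and Eif4a3 are closer to Eif4a1 there than over the aligned coding sequence. Capitals mark the motif in Eif4a1, and in the other genes they mark bases that differ from Eif4a1. Sequences are from GENCODE vM21 transcripts, given 5′ to 3′ as coding positions 523 to 582 of Eif4a1, 529 to 588 of Eif4a2 and 538 to 597 of Eif4a3.
Eif4a1: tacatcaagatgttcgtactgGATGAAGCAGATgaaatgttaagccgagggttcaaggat
Eif4a2: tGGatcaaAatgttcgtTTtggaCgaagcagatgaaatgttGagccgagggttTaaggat
Eif4a3: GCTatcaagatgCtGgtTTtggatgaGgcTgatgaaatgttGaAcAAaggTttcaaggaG
Over these 60 bases Eif4a2 differs from Eif4a1 at 8 and Eif4a3 at 15, which leaves 86.7% and 75.0% identical. Over the aligned coding sequence, Eif4a1 and Eif4a2 were 78.1% identical and Eif4a1 and Eif4a3 69.5%.

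The cap-binding protein genes also changed in proportion. Eif4e, for the main cap-binding protein, was at 16.2 and 18.8 RPKM in the naive libraries, 70.5 and 74.1 in the 3 h libraries, 51.2 and 49.3 in those of 10 h, 45.0 and 55.2 in those of 33 h, 39.8 and 38.9 in expanded cells and 27.2 and 27.5 in plasmablasts. Eif4e2, whose product binds the cap weakly and takes part in repression, was at 19.9 and 18.3, 42.5 and 38.6, 27.2 and 27.3, 27.2 and 30.4, 31.4 and 30.4, and 33.3 and 35.3 RPKM. Eif4e3, for a further cap-binding relative, was low throughout, at 5.52 and 5.43, 2.91 and 3.61, 2.13 and 1.88, 3.83 and 3.51, 5.74 and 6.32, and 8.38 and 7.56 RPKM. Eif4e and Eif4e2 rose at 3 h by 2.05 ± 0.11 and 1.09 ± 0.09 (adjusted p of 2.37e-08 and 3.59e-05), and Eif4e3 gave -0.74 ± 0.14, lower by the F-test only. Eif4e3 reached its lowest value at 10 h and its highest in plasmablasts. The ratio of Eif4e3 to Eif4e differed between stages, from 0.341 and 0.290 in naive libraries to 0.0416 and 0.0383 at 10 h and 0.308 and 0.276 in plasmablasts (range of stage means 2.98, adjusted p = 0.00269, exact permutation test). The ratio of Eif4e2 to Eif4e was 1.23 and 0.973 in naive libraries, 0.603 and 0.521 at 3 h, and 1.22 and 1.29 in plasmablasts (range 1.21, adjusted p = 0.00716, exact permutation test).

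Among the scaffolds, Eif4g1 was at 115 and 109 RPKM in the naive libraries, 286 and 329 in the 3 h libraries, 259 and 266 in those of 10 h, 242 and 271 in those of 33 h, 233 and 238 in expanded cells and 201 and 209.5 in plasmablasts. Eif4g2, whose product lacks the eIF4E-binding site, was at 125 and 126, 303 and 236, 228 and 226, 221 and 256, 213 and 209.7, and 193 and 199 RPKM. Eif4g3 was at 38.7 and 37.3, 33.8 and 40.5, 34.8 and 39.6, 32.8 and 29.7, 28.6 and 30.8, and 27.0 and 29.9 RPKM, the highest of them in a 3 h library. Eif4g1 and Eif4g2 rose at 3 h by 1.46 ± 0.09 and 1.10 ± 0.11, and Eif4g3 gave -0.03 ± 0.11. The ratio of Eif4g3 to Eif4g1 was 0.337 and 0.342 in naive libraries and between 0.110 and 0.149 in all others (range of stage means 1.49, adjusted p = 0.0339, exact permutation test), a call that the rank statistic did not keep (adjusted p = 0.131). The ratio of Eif4g2 to Eif4g1 had stage means 0.38 apart and was not called (adjusted p = 0.356, exact permutation test), although it was without either 3 h library (adjusted p of 0.00115 and 0.00269, exact permutation test). Eif4h and Eif4b encode partners that stimulate eIF4A. Eif4h rose by 1.04 ± 0.09, whereas Eif4b had stage means between 214 and 266 RPKM over all 6 stages and gave 0.16 ± 0.07.

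None of the 4 genes for eIF4E-binding proteins was called at 3 h, beside 21.0% of all genes called higher and 24.3% lower. The difference was not tested. The proteins of Eif4ebp1, Eif4ebp2 and Eif4ebp3 hold eIF4E away from eIF4G until mTOR phosphorylates them. Eif4ebp1 was at 20.1 and 22.4 RPKM in the naive libraries, 8.64 and 24.7 in the 3 h libraries, 68.9 and 77.4 in those of 10 h, 35.1 and 38.3 in those of 33 h, 46.7 and 45.3 in expanded cells and 52.9 and 50.6 in plasmablasts. The 3 h replicates disagreed more than those of any other initiation factor gene, and both 10 h libraries were above all others. Eif4ebp1 rose by 2.09 ± 0.33 from 3 h to 10 h (adjusted p = 0.00149) and was higher in plasmablasts than in naive cells by 1.29 ± 0.32 (adjusted p = 0.0213). That second call was lost under 5 of 15 alternatives, namely library size alone, DESeq2, and without naive replicate 1 or either plasmablast replicate. Eif4ebp2 was the most abundant of them, at 141 and 145 RPKM in the naive libraries, 104 and 93.7 in the 3 h libraries, 109.7 and 123 in those of 10 h, 138 and 136 in those of 33 h, 117 and 125 in expanded cells and 139 and 152 in plasmablasts. Eif4ebp3 was at 8.91 and 9.36, 13.7 and 9.56, 7.71 and 7.67, 9.53 and 8.01, 5.41 and 5.32, and 6.37 and 6.25 RPKM, and 63.9% of the windows of its transcripts also occur in transcripts of another annotated locus. The ratio of Eif4ebp2 to Eif4ebp1 was 7.0 and 6.49 in naive libraries, 12.0 and 3.79 at 3 h, and 1.59 in both 10 h libraries. It differed between stages (range of stage means 2.08, adjusted p = 0.0325, exact permutation test), but the call was lost without any library outside 3 h. The ratio of Eif4ebp3 to Eif4ebp1 also differed (range 2.89, adjusted p = 0.00716, exact permutation test). Eif4enif1, for the shuttle protein that carries eIF4E into the nucleus, had stage means of 19.3 to 23.7 RPKM up to expanded cells and 34.8 in plasmablasts. From naive cells to plasmablasts its log2 fold change was 0.71 ± 0.08 (adjusted p = 0.036), a call that 8 of 15 alternatives lost.

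Eif5a encodes the hypusine-carrying factor that helps the ribosome through difficult peptide bonds, and it was the most abundant initiation factor transcript from 10 h to expanded cells. Its levels were 249 and 274 RPKM in the naive libraries, 497 and 551 in the 3 h libraries, 936 and 909.7 in those of 10 h, 683 and 856 in those of 33 h, 682 and 677 in expanded cells and 454 and 462 in plasmablasts. It rose by 1.0 ± 0.10 to 3 h and by a further 0.82 ± 0.10 to 10 h (adjusted p of 4.32e-04 and 0.0191). The call between 3 h and 10 h was lost under 4 of 15 alternatives, with the size factors of DESeq2, by DESeq2, and without 3 h replicate 1 or 10 h replicate 1. Eif5a2 encodes its paralog and was far less abundant, at 1.57 and 1.85 RPKM in the naive libraries, 1.70 and 1.53 in the 3 h libraries, 2.77 and 3.01 in those of 10 h, 2.48 and 2.65 in those of 33 h, 3.67 and 3.76 in expanded cells and 1.57 and 1.33 in plasmablasts. Expanded cells were above all other libraries. Eif5a2 rose between 3 h and 10 h by 0.84 ± 0.14 (adjusted p = 0.0401), a call lost under 7 of 15 alternatives, among them DESeq2 and without either 10 h replicate or 3 h replicate 2. It fell between expanded cells and plasmablasts, at -1.36 ± 0.14 (adjusted p = 9.69e-05), the largest change of an initiation factor gene at that step. The ratio of Eif5a2 to Eif5a differed between stages (range of stage means 1.08, adjusted p = 0.0233, exact permutation test). Eif6, for a factor that keeps the large ribosomal subunit apart from the small, was at 84.5 and 77.3 RPKM in the naive libraries, 226 and 248 in the 3 h libraries, 177 and 171 in those of 10 h, 161 and 184 in those of 33 h, 129.5 and 129 in expanded cells and 114 and 118 in plasmablasts. It rose by 1.55 ± 0.09 at 3 h (adjusted p = 1.71e-07).

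The eIF1 and eIF1A paralogs differed as well. Eif1, for the factor that guards start codon choice, was at 91.0 and 88.3 RPKM in the naive libraries, 176 and 129 in the 3 h libraries, 127 and 123 in those of 10 h, 97.2 and 117 in those of 33 h, 103 and 109 in expanded cells and 140.1 and 134 in plasmablasts. Its paralog Eif1b was at 57.5 and 55.2, 35.7 and 39.0, 58.4 and 54.5, 45.8 and 49.1, 39.3 and 40.5, and 45.6 and 45.3 RPKM. At 3 h they went opposite ways by the F-test, 0.76 ± 0.13 for Eif1 and -0.59 ± 0.09 for Eif1b, and neither passed the test against 1.5-fold. The ratio of Eif1b to Eif1 was 0.632 and 0.625 in naive libraries and 0.203 and 0.304 at 3 h, and it differed between stages (range of stage means 1.34, adjusted p = 0.00269, exact permutation test). Of the windows of Eif1 transcripts, 14.4% also occur in other loci. For Eif1b, 12.7% of the exonic bases overlap D830035M03Rik on the opposite strand. Eif1ax, the X-linked form of eIF1A, was at 74.4 and 81.8 RPKM in the naive libraries, 160.4 and 171 in the 3 h libraries, 208 and 199 in those of 10 h, 188 and 226 in those of 33 h, 211 and 195 in expanded cells and 165 and 158 in plasmablasts. In the fit that kept X-linked genes it rose by 1.09 ± 0.10 at 3 h (adjusted p = 9.62e-05). Its ratio to Eif1a was 3.62 and 4.16 in naive libraries, 1.47 and 1.65 at 3 h, and 3.5 and 3.53 at 10 h (range of stage means 1.35, adjusted p = 0.0325, exact permutation test). Over the 12 pairs of related genes compared in this way, 10 ratios differed between stages, with p-values adjusted over the 12.

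**Figure D4:**
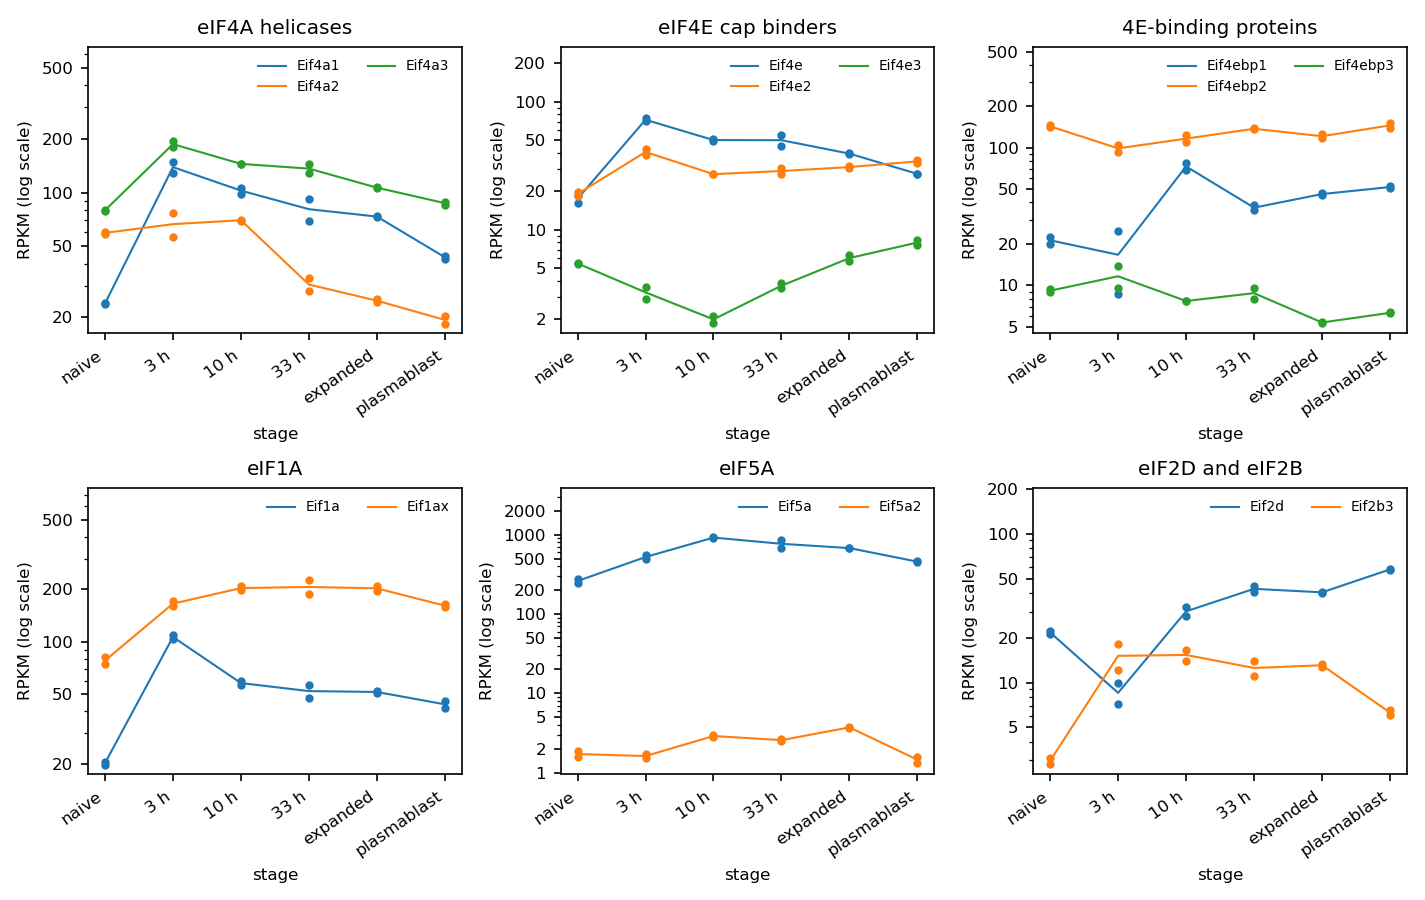
RPKM on a log axis by stage for related initiation factor genes, points for libraries and lines through stage means. Eif4a1 and Eif4a2 change places between naive cells and 3 h, Eif4e3 dips at 10 h to 2.00 RPKM, and the 3 h points of Eif4ebp1 lie at 8.64 and 24.7 RPKM.

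After 3 h the changes were smaller. Between 3 h and 10 h, 5 of 48 genes rose (Eif2d, Eif3i, Eif4ebp1, Eif5a and Eif5a2) and 2 fell (Eif1a and Eif1ad), beside 17.4% of all genes tested called higher and 13.4% called lower. The F-test counted 8 higher and 21 lower, beside 32.1% and 30.2% of all genes, and the median log2 fold change of the initiation factor genes was -0.21. The direction depends on the scaling. Library size alone moved the median of all genes by 0.33 and that of the initiation factor genes to 0.12. It called 6 higher and 0 lower, and the size factors of DESeq2 gave 2 higher and 3 lower. Shares of all genes called under these scalings were not computed. Without 10 h replicate 1 the count of 7 became 3.

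Between 10 h and 33 h, Eif4a2 fell and no gene rose past 1.5-fold, beside 10.1% of all genes called higher and 4.45% lower. There the F-test counted 8 higher and 7 lower, beside 23.2% and 22.2%. Between 33 h and expanded cells, edgeR called 0 higher and 0 lower against 1.5-fold, beside 6.94% and 3.66% of all genes. At an unadjusted p under 0.05 the same test also gave 0, DESeq2 called 0, and the F-test counted 5 higher and 13 lower, beside 18.5% and 21.2%. The largest of these smaller changes were those of Eif4e3, at 0.71 ± 0.14, and Eif4ebp3, at -0.71 ± 0.17.

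Between expanded cells and plasmablasts, both of day 4, 2 genes fell (Eif2b3 and Eif5a2) and none rose, beside 12.2% of all genes called lower and 13.9% called higher. The F-test counted 20 lower and 8 higher, beside 29.7% and 27.2%. Those higher by the F-test were Eif1, Eif3k, Eif3m, Eif4e3, Eif4ebp2, Eif4enif1, Eif5 and Eif2d, with Eif5 at 0.72 ± 0.08 and Eif4enif1 at 0.65 ± 0.08 the largest. With library size alone, which moved the median of all genes by -0.34, 13 were called lower and 0 higher. The share of all genes called with that scaling was not computed. From naive cells to plasmablasts, which shares its naive libraries with the comparison at 3 h, 18 genes rose and 1, Eif4a2, fell, beside 26.6% of all genes called higher and 23.4% called lower. The highest were Eif2d, Eif4ebp1 and Eif5, at 1.41, 1.29 and 1.23. With library size alone the counts were 4 higher and 3 lower, and DESeq2 called 9 higher and 1 lower. Shares of all genes under these settings were not computed.

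Other genes of translation were read from 4 lists. At 3 h, 13 of 22 initiation partners rose and 0 fell, with Mcts2, Larp1 and Larp4 at 2.65 ± 0.46, 2.19 ± 0.08 and 1.84 ± 0.11. Larp1 and Larp4 encode RNA-binding proteins of the La-related family, and Mcts2 had stage means of 0.629 and 3.98 RPKM. Of 11 termination and recycling genes 7 rose and 0 fell, led by Abcf2, Etf1, the release factor that reads stop codons, and Abce1, which splits ribosomes, at 2.36 ± 0.10, 2.22 ± 0.09 and 1.68 ± 0.09. These shares stand beside the 21.0% of all genes called higher at 3 h. Of 25 genes listed for the control of eIF2, eIF4A and eIF4E, 8 rose and 2 fell, beside 21.0% and 24.3% of all genes. The list also holds genes downstream of eIF2, such as Atf4. The 2 that fell were the eIF2 kinase genes Eif2ak2, at -1.81 ± 0.23, and Eif2ak3, at -1.59 ± 0.09. Myc was the highest, at 4.68 ± 0.13, followed by Ppp1r15a, a subunit of the phosphatase that acts on eIF2, at 3.81 ± 0.20, and Atf4, the transcription factor translated when eIF2 is phosphorylated, at 3.08 ± 0.13. Of 18 elongation genes, 4 rose (Eef1e1, Dph1, Dph2 and Dph3) and 1 fell at 3 h, a share near the 21.0% of all genes called higher. Eef1a1, Eef1b2, Eef1d, Eef1g and Eef2 were not called there, at -0.26, -0.07, -0.09, -0.07 and -0.38. Of these, Eef1a1 and Eef2 were lower by the F-test. Between 3 h and 10 h, 8 of the 18 rose and 0 fell, beside 17.4% of all genes called higher. The difference between the lists was not tested. Eef1e1 rose by 2.36 ± 0.11 at 3 h, Dph2, for an enzyme that modifies elongation factor eEF2, by 1.49 ± 0.12, and Eef2k, for the kinase that inhibits eEF2, fell, at -1.99 ± 0.15.

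Promoter sequences around the RefSeq start, from 250 bases before to 50 bases after it on GRCm38.p6, were matched for 39 of the 51 genes. They were searched on both strands for 7 motifs, whose matches may overlap. The E-box CACGTG, to which factors of the MYC and USF families bind, was in 8 of the 37 windows of tested genes (21.6%), in 10.2% of the 9919 windows of all genes tested and in 7.24% of all 27025 windows. The ETS motif CCGGAAG was in 32.4%, against 18.8% of the windows of genes tested, and TGACG, which is part of the cAMP response element, in 48.6% against 31.8%. The GC box GGGCGG was in 73.0% against 63.6%, CCAAT in 32.4% against 39.2%, TATAAA in 8.11% against 7.34%, and AAGATGG in 8.11% against 7.38%. The E-box was in 4 of 22 windows of genes called higher at 3 h (18.2%) and in 4 of 15 of the other tested genes (26.7%). The windows with an E-box before the start are given 5′ to 3′ on the strand of the gene with the E-box in capitals, because they include helicase, scaffold and eIF3 genes with different values at 3 h.
Eif4a1, chr11:69672580-69672639, minus strand: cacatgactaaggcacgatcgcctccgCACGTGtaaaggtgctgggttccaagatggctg
Eif4g1, chr16:20672646-20672705, plus strand: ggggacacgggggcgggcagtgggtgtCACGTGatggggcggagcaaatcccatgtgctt
Eif4h, chr5:134639473-134639532, minus strand: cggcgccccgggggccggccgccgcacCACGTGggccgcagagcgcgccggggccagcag
Eif3f, chr7:108934320-108934379, plus strand: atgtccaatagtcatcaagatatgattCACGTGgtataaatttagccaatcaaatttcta
Eif3k, chr7:28981900-28981959, minus strand: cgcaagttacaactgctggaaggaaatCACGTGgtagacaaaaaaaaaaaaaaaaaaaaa
Eif1b, chr9:120492546-120492605, plus strand: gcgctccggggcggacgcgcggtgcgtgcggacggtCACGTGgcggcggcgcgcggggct
Eif5a2, chr3:28781117-28781183, plus strand: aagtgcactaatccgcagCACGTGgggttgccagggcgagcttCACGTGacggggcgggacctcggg
Eif4a1, Eif4g1 and Eif4h rose at 3 h, Eif3f, Eif3k and Eif1b were lower by the F-test alone, and Eif5a2 was not called. Eif5a2 holds 2 E-boxes before the start, which begin 142 and 117 bases before it. The window of Eif4g1 holds another E-box after the start, not shown, and that of the eighth gene, Eif3a, holds its E-box after the start.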

How the data were processed

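RNA-seq libraries (TruSeq RNA) were made from 2 biological replicates at each of 6 stages. The authors aligned the reads with Rsubread to GRCm38/mm10 and deposited whole-number counts per Entrez gene from featureCounts, after base calling with CASAVA 1.8.2, and these raw counts are neither length-scaled nor normalized. The 12 single-library files equal the series table. Of the 27179 rows, 25275 matched a gene record. Unmatched identifiers (1.41% to 2.08% of counts), mitochondrial genes (4.94% to 11.5%), X and Y genes (1.82% to 2.39%), ribosomal RNA and immunoglobulin variable segments (0.242% to 5.19%) were removed, as in the study's methods, which left 23700 genes.

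Genes passing filterByExpr (12750) were scaled by trimmed mean of M-values and fitted in one layout over the 12 libraries with edgeR 4.0.16 and limma 3.58.1 in R 4.3.3 (robust quasi-likelihood). glmTreat tested against a fold change of 1.5, with Benjamini-Hochberg adjusted p under 0.05 over all genes tested. With 2 libraries a stage, an exact permutation of a single gene could not give a two-sided p below 0.333. RPKM values were computed here from the counts. Depth sets a floor of 3 counts, 0.0495 to 0.130 CPM (counts scaled to the library total), which covers counting error only. Ratios of related genes, with 0.5 added to each count, were compared by an exact permutation test of the F statistic (SciPy 1.17.1, Python 3.11.15). The pipeline was tested on simulated data.

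Members, gene lists and the DEAD-box and promoter choices were made with earlier results of these data known. Every member is named. Values in each library are given for members called at a consecutive transition, at most 5 for each factor group by size of change. They are also given for members of related pairs. Up to 3 genes are named for each other list, and for the control list also the 2 that fell. For the elongation list the others that rose and genes of eEF1 and eEF2 are named too. Whether reads were counted by strand, or shared between near-identical copies, is not given in the sources used here. Alternatives included DESeq2 1.42.0, other scalings and filters, a replicate block and leaving out each library. A few items, among them 2 cell type markers, are not reported here.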

Additional observations from a re-analysis of the deposited data

How the results depend on the processing

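The count of 28 initiation factor genes called between naive cells and 3 h stayed between 27 and 38 under every alternative, and between 28 and 30 without 1 library. Between 3 h and 10 h the count of 7 was 4 by DESeq2, 29 by the F-test without a fold threshold and 3 to 6 without 1 library. Between 10 h and 33 h the count of 1 was 2 with the size factors of DESeq2, without a filter on low counts or with only the 4 libraries compared, 15 by the F-test, and 1 to 1 without 1 library. Between 33 h and expanded cells the count of 0 was 18 by the F-test. Between expanded cells and plasmablasts the count of 2 was 13 with library size alone, 1 by DESeq2, 28 by the F-test, 5 with only the 4 libraries compared, and 1 to 2 without 1 library. The count of 1 came without plasmablast replicate 2. Between naive cells and plasmablasts the count of 19 was 7 with library size alone, 10 by DESeq2, 42 by the F-test and 13 to 16 without 1 library. Causes of these differences were not tested, except that the F-test counts changes of any size. The F-test called 34.7% of all genes higher and 36.3% lower from naive cells to 3 h. In the same order it called 32.1% and 30.2% to 10 h, 23.2% and 22.2% to 33 h, and 18.5% and 21.2% to expanded cells. The shares were 27.2% and 29.7% from expanded cells to plasmablasts, and 38.2% and 35.9% from naive cells to plasmablasts. Shares of all genes under the other alternatives were not computed. With the size factors of DESeq2, 1 gene was called higher and 2 lower between expanded cells and plasmablasts, against 0 and 2. A stage left with 1 library was assumed to vary like the others. No called gene reversed direction. The 57 calls were each checked under 15 alternatives. Of these 855 checks, 781 kept the call and 74 lost it, and 35 calls were kept throughout. The F-test, 1 of the alternatives, reused the main fit without the fold threshold, so its checks could hardly fail.

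Replicate numbers did not pair the libraries: over the 15 pairs of stages the correlation of their deviations ran from -0.26 to 0.21, with 1 above 0.1. With the replicate block the counts were 28, 7, 1, 0, 2 and 19 over the 6 comparisons, the same genes as without it.

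By the rank statistic of Kruskal and Wallis, the ratios Eif4g3 to Eif4g1 (range 1.49, adjusted p = 0.131), Eif1ax to Eif1a (1.35, adjusted p = 0.0608) and Eif5a2 to Eif5a (1.08, adjusted p = 0.121), by exact permutation, were no longer called. Without 1 library the range ran from 2.08 to 2.92 for Eif4ebp2 to Eif4ebp1, from 0.339 to 0.651 for Eif4g2 to Eif4g1, from 1.48 to 1.63 for Eif4g3 to Eif4g1 and from 1.27 to 1.43 for Eif1ax to Eif1a. Their highest adjusted p without 1 library was 0.113, 0.73, 0.0617 and 0.0617 by exact permutation. The other ratios kept their side of the threshold under every alternative run, except Eif5a2 to Eif5a as given.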
